A study of Mus musculus with 14 samples.

Results

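The clustered protocadherins were described here in RNA of hippocampal parvalbumin (PV) neurons of mice that had or had not been through chronic social defeat stress (CSDS). The members were the protein-coding genes of the alpha, beta and gamma clusters, chosen by symbol after the gene identifiers of the count table had been named from release vM21 of the GENCODE mouse annotation. This gave 24 of the 39017 gene rows. All 22 genes of the beta cluster had a row, against 1 of 14 genes of the alpha cluster and 1 of 21 genes of the gamma cluster. The other alpha and gamma genes had no row of their own and could not be analysed gene by gene.

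Clustered protocadherins are cadherin-like proteins of the cell surface that bind their own kind on neighbouring membranes, and a neuron shows a small set of them that differs from that of the next neuron. Branches of 1 neuron carry the same set and avoid each other, which is how the family is known to act in dendrite self-avoidance and in the spacing of axons. Each gene has its own promoter, and promoter choice in a cell involves the architectural protein CTCF, cohesin and DNA methylation. A beta gene is a single exon with its own short cytoplasmic tail. An alpha or gamma gene has 1 large variable exon, which codes for the extracellular part, spliced to 3 constant exons shared by its whole cluster. The C-type genes at the end of the alpha and gamma clusters are not chosen at random in the same way, and 1 of the 5 had a row, Pcdhgc4, which is known for its part in the survival of cortical interneurons.

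The alpha and gamma rows need care for this reason. The alpha row, ENSMUSG00000007440, is named Pcdha11 in vM21, and the gamma row, ENSMUSG00000023036, is named Pcdhgc4. On mm10 chromosome 18, plus strand, vM21 places them at 37005203 to 37187657 and at 37815079 to 37841873, and there each shares exons with the other genes of its cluster, which are not rows of the table. The table follows an older annotation, whose release is not given in the sources used here. These rows held 4386 to 10431 and 6952 to 16312 counts per library, against 0 to 487 for a beta gene. If the older annotation also gives them the shared exons, reads there from any gene of the cluster stayed in the row. The rows would then not be levels of 1 gene. Whether they also hold variable exons of other genes could not be settled from the counts. They are therefore called the alpha row and the gamma row, and no level per length is given for them. The 22 beta genes lie between them on the same strand, from 37264938 to 37524479, and each has a row of its own.

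All mice were adult males that carried PV-Cre and a Cre-dependent EGFP-L10a allele, so that a tagged ribosomal protein was made in PV neurons. In TRAP, translating ribosome affinity purification, ribosomes with the tag are pulled from a homogenate together with the mRNA on them. TRAP RNA came from 4 non-defeated mice, from 4 resilient mice, which were defeated and had a social interaction ratio of at least 1, and from 3 susceptible mice, which were defeated and had a ratio below 1. Each TRAP sample was made from both hippocampi of 1 mouse. The input was total RNA of 3 samples of non-defeated mice, taken before the purification, and its sample numbers (12, 13 and 14) are not those of the TRAP samples. Whether these 3 came from separate mice is not stated, so the spread of the input may be technical. TRAP differs from input both in the cells and in being bound to ribosomes, and these cannot be told apart. In such bulk samples, fewer cells of a type and less RNA per cell cannot be told apart either.

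Library totals were between 64110214 and 94726962 counts. Some libraries stood apart from others of their group, by the chi-square per degree of freedom of their counts over genes. It was 13.9 to 21.1 between input libraries, but 105 and 126 between susceptible library 10 and libraries 2 and 4 (42.5 between those), 78.7 to 117 between resilient library 3 and the other 3 (30.7 to 58.8 among those), and 67.9 to 114 between non-defeated libraries 1 or 6 and 9 or 11 (23.6 and 18.4 within these pairs). Levels are given as normalized CPM, counts scaled to library size and corrected with edgeR's TMM factors, and changes as log2 fold changes with their standard error (SE) from 1 edgeR quasi-likelihood fit of all 14 libraries, with Benjamini-Hochberg adjustment over the 21298 genes that passed edgeR's filter on low counts. A gene was called at an adjusted p under 0.05. The label of the TRAP libraries was checked against markers. Pvalb, which codes for parvalbumin, had 25.4 ± 6.03 CPM (SD, n = 3) in input against 1464 ± 134 (SD, n = 4) in TRAP of non-defeated mice, a log2 fold change of 5.85 with an adjusted p of 7.89e-11 by edgeR, and all 5 PV neuron markers were called higher. Markers of other cells were lower but not absent. Their summed level in input against TRAP of non-defeated mice was 1100 to 1282 against 325 to 437 CPM for 4 markers of excitatory neurons, 508 to 552 against 164 to 268 for 5 of astrocytes, 1687 to 2000 against 452 to 634 for 4 of oligodendrocytes, and 25.0 to 29.9 against 2.41 to 6.95 for 3 of microglia. Called lower were 4 of 4, 4 of 5, 4 of 4 and 3 of 3 of them, and 1 of 2 markers of oligodendrocyte precursors, and no marker of these lists was at 0 in all libraries of a group. Called higher were Sst, the marker of another interneuron class, from 57.4 to 69.3 CPM in input to 165 to 242 in TRAP, and 1 of 3 endothelial markers, Cldn5, at 1.26 and 2.95 CPM.

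The alpha row was higher in TRAP than in input and the gamma row lower, and these were the 2 members with the highest counts. The alpha row had 56.0, 62.1 and 58.3 CPM in input libraries 12, 13 and 14, and 91.4, 113, 114 and 112 in TRAP libraries 1, 6, 9 and 11 of non-defeated mice. Every TRAP library lay above every input library, with library 1 the lowest of the 4. The mean rose 1.83-fold, from 58.8 ± 3.10 (SD, n = 3) to 107.6 ± 10.8 (SD, n = 4), a log2 fold change of 0.87 (SE 0.13, adjusted p = 4.24e-05 by edgeR).

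The gamma row had 191, 191 and 182 CPM in the input libraries and 96.9, 117, 122 and 124 in the TRAP libraries of non-defeated mice. Here every TRAP library lay below every input library. The mean was 1.64-fold lower in TRAP, 115 ± 12.4 (SD, n = 4) against 188 ± 5.43 (SD, n = 3), a log2 fold change of -0.71 (SE 0.10, adjusted p = 4.59e-05 by edgeR). The counts of the alpha row divided by those of the gamma row thus came to 0.313 ± 0.018 (SD, n = 3) in input and 0.937 ± 0.026 (SD, n = 4) in TRAP. Markers of glia and of excitatory neurons were lower in the same TRAP libraries, as given above, and their part in the difference was not tested.

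**Figure D1:**
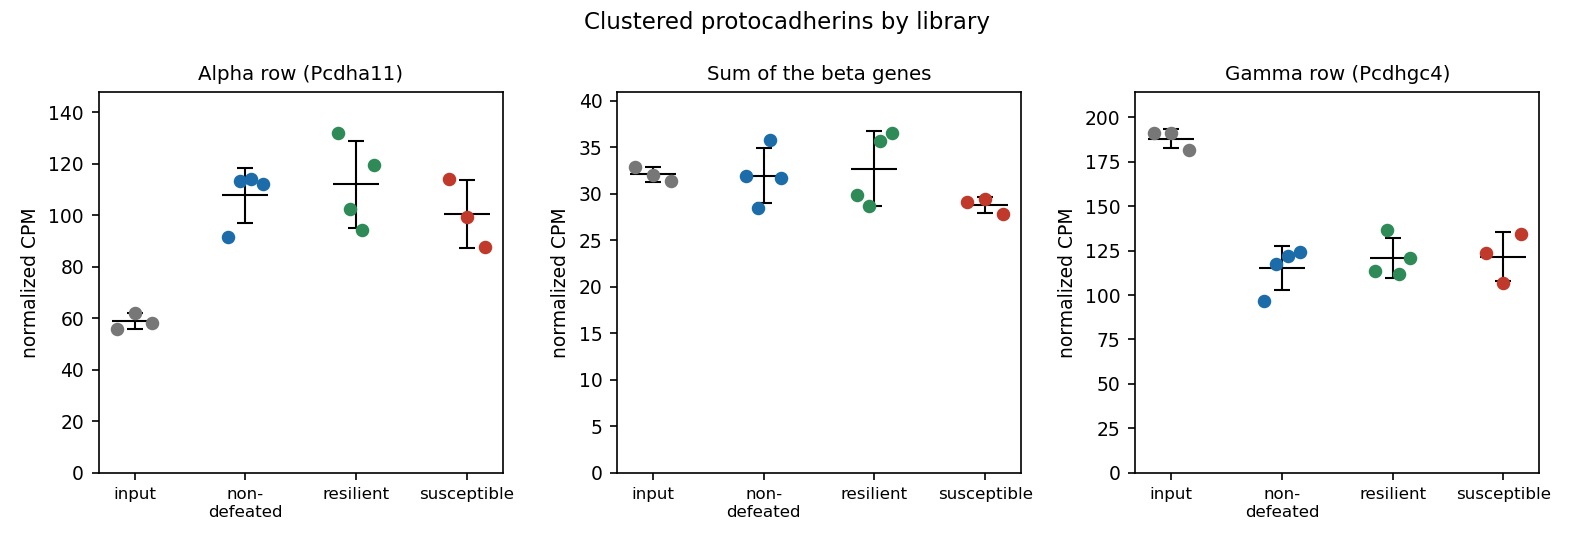
Normalized CPM of the alpha row, of the sum of the 22 beta genes and of the gamma row in each library, by group (points), with the mean and SD (line and bars), on axes that start at 0. The alpha row rises from 58.8 CPM in input to 107.6 in TRAP of non-defeated mice, the gamma row falls from 188 to 115, and the beta sum is 32.1 and 32.0.

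The summed beta cluster had almost the same mean in both with TMM scaling, but not when scaled by total counts alone. Its 22 genes summed to 32.9, 32.1 and 31.3 CPM in the input libraries and to 31.9, 28.5, 35.8 and 31.7 in TRAP of non-defeated mice. The TRAP values reached above and below all the input values, and the means were 32.1 ± 0.786 (SD, n = 3) and 32.0 ± 3.0 (SD, n = 4). Scaled by total counts, the sums were 36.1, 35.3 and 35.1 in input and 31.7, 27.7, 34.0 and 30.8 in TRAP, so that every TRAP library lay below every input library, with means of 35.5 and 31.05. No test was made of a sum over members. Among the 3 clusters' counts, the beta genes took 11.5% ± 0.253 in input, and 12.6% ± 1.53 in TRAP of non-defeated mice.

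Within the beta cluster, levels were compared per kilobase of exon, counting only bases that no other row of the table covers. The plan had been to leave out bases under any other gene of vM21, which changes Pcdhb12 alone. Pcdhb9 was the highest in TRAP of non-defeated mice, with 1.26 ± 0.320 CPM per kilobase (SD, n = 4), followed by Pcdhb20 with 0.838 ± 0.139 and Pcdhb12 with 0.750 ± 0.0865. With the planned length Pcdhb12 had 2.06 CPM per kilobase and came first, with Pcdhb9 second. The intervals of Pcdhb9 and Pcdhb20 overlap within 1 SD, and so do those of Pcdhb20 and Pcdhb12. Pcdhb20 and Pcdhb12 were also among the 4 highest in input. There Pcdhb9 was again first with 1.51 CPM per kilobase and Pcdhb7 second with 0.861. Pcdhb12 carries an antisense gene of vM21 over most of its exon that is not a row of the table, and since the library kit does not mark strand, reads of both would be counted together.

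At the other end, Pcdhb13 had 0.0364 ± 0.0384 CPM per kilobase, the lowest of the 21 beta genes that passed the filter. Its counts were 1 in each of libraries 1 and 6, but 19 and 17 in libraries 9 and 11. Pcdhb1, the first gene of the cluster and set apart from the rest by a gap, was the only member that failed the filter. It had 6 and 2 counts in input libraries 13 and 14, 17 in resilient library 8 and 0 in each of the other 11 libraries, where a count of 0 allows up to 3 counts. Such limits cover counting error only. The 17 beta genes between Pcdhb12 and Pcdhb13 in this order ranged from 0.134 to 0.645 CPM per kilobase, with Pcdhb17 at the top of that range and Pcdhb2 at its foot.

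**Figure D2:**
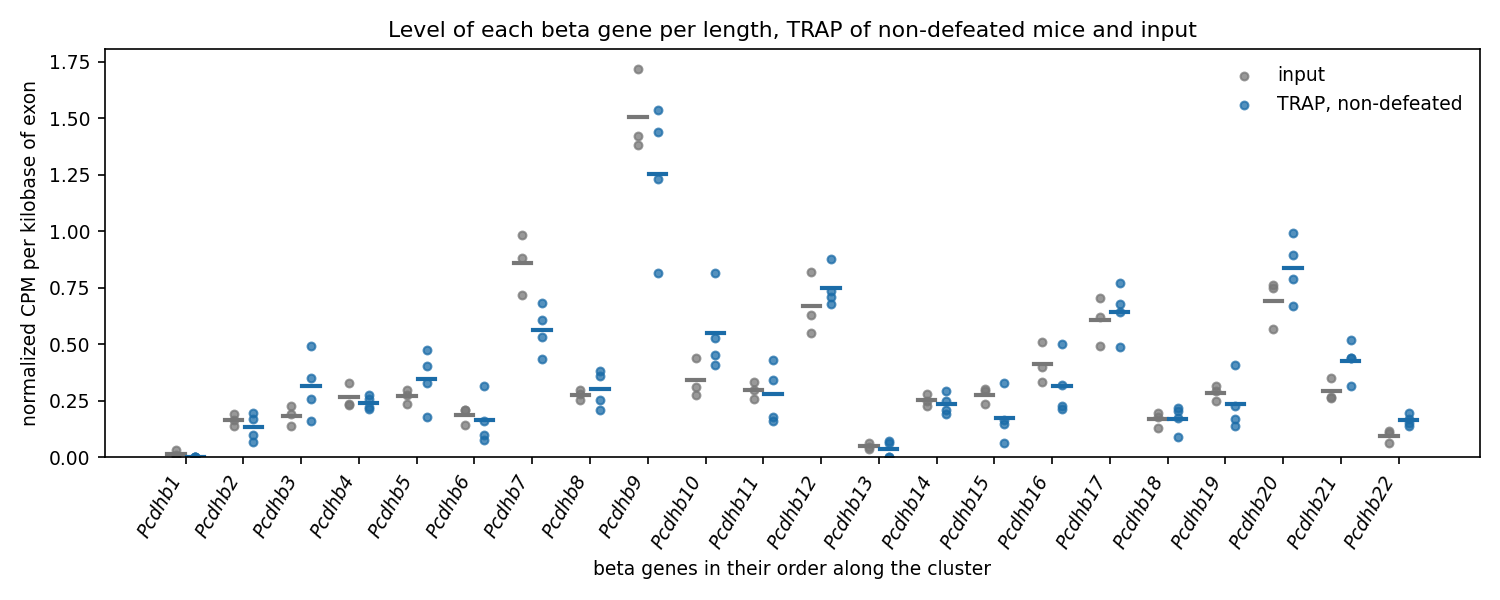
Normalized CPM per kilobase of exon for the 22 beta genes in their order along the cluster, in 3 input libraries (grey) and 4 TRAP libraries of non-defeated mice (blue), with a line at each mean. Pcdhb9 stands highest in both, at 1.51 and 1.26, and Pcdhb1 and Pcdhb13 lie near 0.

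The order of the genes along the chromosome bore little relation to their levels. Across the 21 beta genes that passed the filter, the rank by start had a Pearson r of 0.04 and a Spearman rho of 0.02 with the log2 level per kilobase in TRAP, and 0.13 and 0.13 with the log2 fold change of TRAP over input. GC content had an r of -0.04 and a rho of -0.07 with that fold change. These are descriptions over genes that share the same libraries.

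In the comparison of TRAP with input, 3 of the 23 members tested were called, 1 higher and 2 lower. Over all genes tested, 27.4% were called higher and 27.6% lower. The alpha and gamma rows were 2 of the 3. Of the 21 beta genes, 1 was called, 10 had an estimate above 0 and 11 below, and their median log2 fold change was -0.09, against -0.04 over all genes. The beta genes' standard errors ran from 0.19 to 0.89.

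The called beta gene was Pcdhb7. It had 3.45, 3.09 and 2.51 CPM in input and 1.52, 2.14, 2.39 and 1.87 in TRAP of non-defeated mice. The ranges were next to each other but did not overlap. Its log2 fold change was -0.61 (SE 0.22, adjusted p = 0.0273 by edgeR), a level 1.52-fold lower in TRAP, and the call was lost without library 1 or 11 of the non-defeated mice or without input library 12 or 13, with adjusted p-values from 0.0609 to 0.113, and at 0.0531 with an offset for GC content.

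The groups did not overlap for 4 of the 23 members, against 62% of all genes tested. The fourth was Pcdhb22, singled out after its values were seen, with 0.727, 0.397 and 0.659 CPM in input and 1.20, 1.04, 0.859 and 0.940 in TRAP. Its log2 fold change of 0.76 (SE 0.39) had an adjusted p of 0.116 in edgeR's fit of all libraries, 0.0438 in a fit of the 2 groups compared and 0.0358 with DESeq2. Pcdhb22 overlaps Pcdhb21 at its start on the same strand, and 4.74% of the 150-base stretches of its exon also occur in Pcdhb21, so that a few reads of this pair cannot be assigned. Pcdhb21 itself had 1.25 CPM in input and 1.82 in TRAP (log2 fold change 0.54, adjusted p = 0.129). Besides these, Pcdhb6 and Pcdhb10 shared identical 150-base stretches with each other, 0.168% and 0.222% of their exons, and the remaining beta rows shared none with another row.

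**Figure D3:**
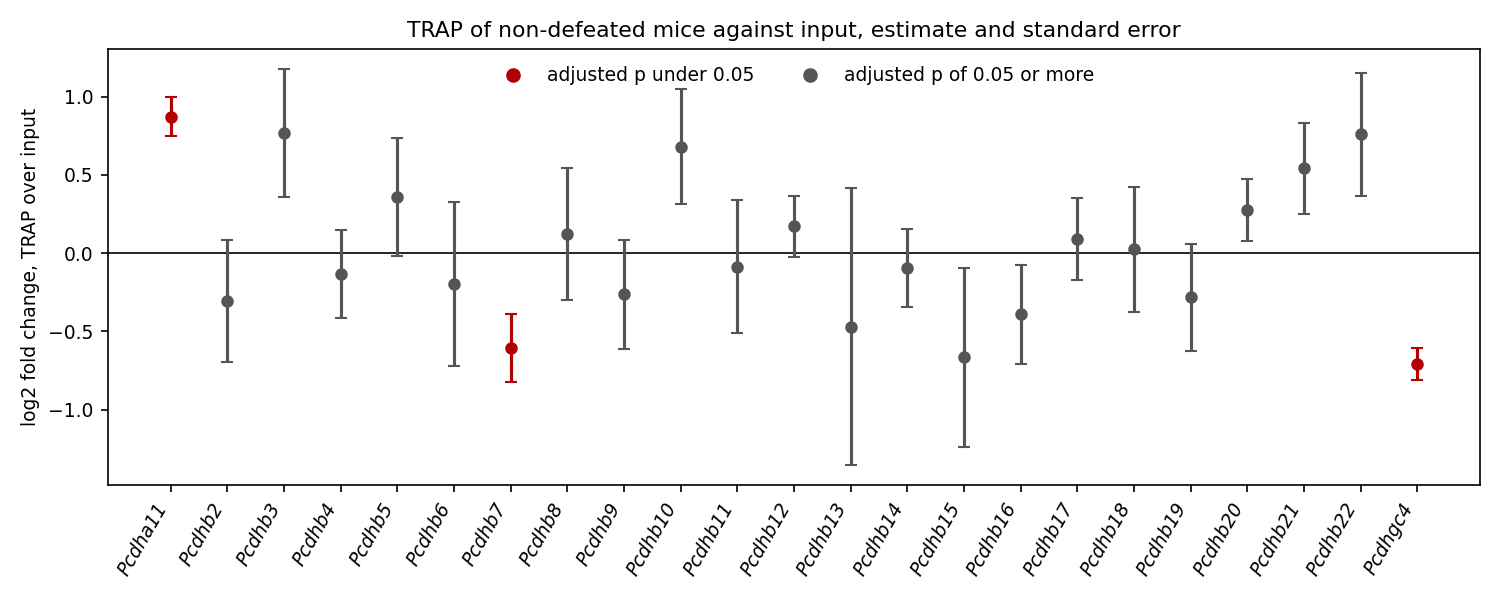
Log2 fold change of TRAP of non-defeated mice over input for the 23 members tested (points) with the standard error (bars), the alpha row first, the beta genes in cluster order and the gamma row last, red where the adjusted p is under 0.05. The alpha row stands at 0.87, Pcdhb7 at -0.61 and the gamma row at -0.71, and the other 20 are grey.

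The members' variation between libraries was wider in the beta genes than in the genes at large. The coefficient of variation of CPM had a median over the 21 beta genes of 16.4% between input libraries, and of 33.1%, 39.9% and 34.6% between TRAP libraries of non-defeated, resilient and susceptible mice. Over all genes tested, the same medians were 8.34%, 16.3%, 15.6% and 17.8%. TRAP libraries of non-defeated mice varied more than input for 18 of the 21 beta genes (85.7%), and for 78.2% of all genes.

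Variation depends on abundance, which edgeR describes with a trend. The biological coefficient of variation that edgeR fits to each gene over all groups had a median of 33.5% in the beta genes and 17.7% in all genes, and it lay above edgeR's trend for their abundance in 11 of 21 beta genes (52.4%) and in 29.4% of all genes. It was the widest for Pcdhb13, at 76.1%, and the narrowest for Pcdhb12 and Pcdhb20, at 18.8% and 19.2%. The alpha and gamma rows had 12.2% and 10.6%, below their trend of 13.02% and 12.9%. No test was made of these shares.

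**Figure D4:**
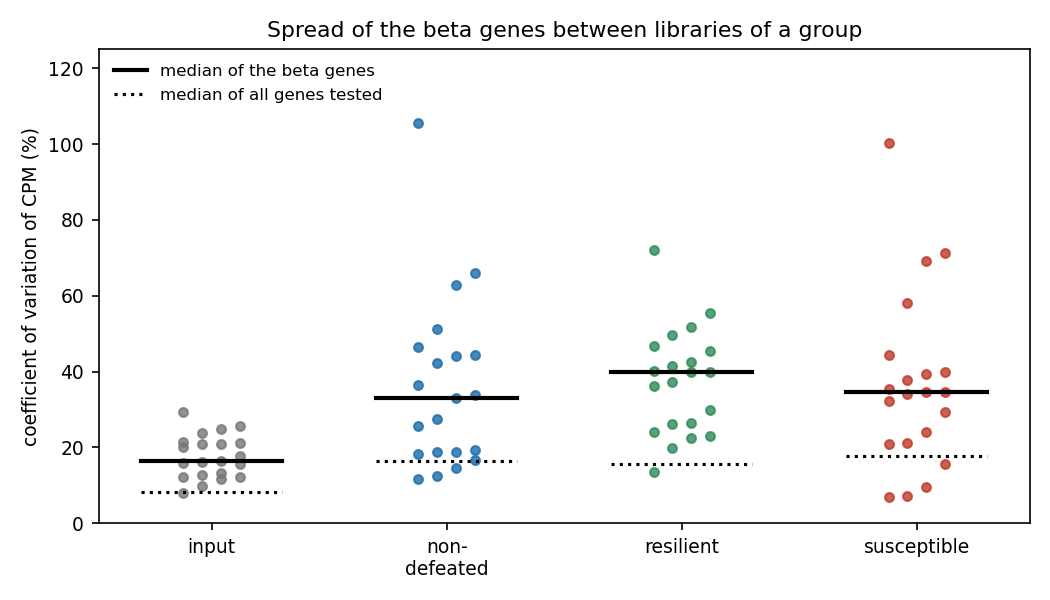
Coefficient of variation of CPM between the libraries of a group, in percent, for each of the 21 beta genes that passed the filter (points), with the median of the beta genes (solid line) and of all genes tested (dotted line). The median of the beta genes is 16.4% in input and between 33.1% and 39.9% in the 3 TRAP groups.

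The beta gene with the most counts, not divided by length, was not the same in all TRAP libraries. Pcdhb9 took the most beta counts in all 3 input libraries, with 13.2% to 15.97% of them. In TRAP it led in 6 of the 11 libraries, with up to 18.3% in susceptible library 4. Pcdhb17 led in libraries 9 and 10, Pcdhb14 in library 5, Pcdhb12 in library 8 and Pcdhb20 in library 2. Some leads were small. In library 9 Pcdhb17 had 247 counts and Pcdhb20 243, and in library 8 Pcdhb12 had 269 and Pcdhb17 266. No test was made of the leads. Counts were found for 21 of the 22 beta genes in 10 of the 11 TRAP libraries, and for all 22 in library 8.

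The stress groups were then compared to ask whether protocadherin RNA in PV neurons differed with the outcome of CSDS. The comparisons of resilient and of susceptible mice with non-defeated mice share the same 4 control libraries. Of the 23 members, edgeR's quasi-likelihood test called 0 in each of the 3 comparisons, where it called between 0% and 1.02% of all genes in a direction, and the likelihood ratio test called 1, Pcdhb2, between susceptible and resilient mice. The alpha row had 132, 102.5, 94.4 and 119 CPM in resilient libraries 3, 5, 7 and 8, and 114, 99.4 and 87.6 in susceptible libraries 2, 4 and 10. These overlapped each other and the non-defeated values. The log2 fold change was 0.06 (SE 0.11, adjusted p = 1) in resilient against non-defeated mice, -0.10 (SE 0.12, adjusted p = 0.745) in susceptible against non-defeated mice, and -0.16 (SE 0.12, adjusted p = 0.500) between susceptible and resilient mice, all by edgeR.

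The gamma row had 114, 136.5, 112 and 121 CPM in the resilient libraries, and 124, 107 and 135 in the susceptible ones. Again the groups overlapped, with log2 fold changes of 0.07 (SE 0.10), 0.08 (SE 0.10) and 0.01 (SE 0.10) in the same 3 comparisons. The alpha to gamma ratio averaged 0.936 ± 0.179 over the 4 resilient libraries and 0.835 ± 0.160 over the 3 susceptible ones (SD), with extremes of 1.16 in resilient library 3 and 0.651 in susceptible library 10. The beta sum was 32.7 ± 4.01 CPM (SD, n = 4) in resilient mice and 28.8 ± 0.890 (SD, n = 3) in susceptible mice, and the susceptible range of 27.8 to 29.5 overlapped the resilient one, which began at 28.7.

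In resilient against non-defeated mice, 0 of 23 members were called by edgeR, and 0 by its likelihood ratio test or by DESeq2. All genes gave 0% higher and 0% lower. At an unadjusted p under 0.05 there was 1 member, against 4.38% of all genes, and no member's groups were apart, against 2.35%. That member was Pcdhb21. Its values were 1.87, 1.87, 2.20 and 1.35 CPM in non-defeated and 0.874, 0.909, 1.84 and 0.923 in resilient mice. Resilient library 7 lay among the non-defeated values, and the other 3 lay below all of them. The log2 fold change was -0.68 (SE 0.27, unadjusted p = 0.0243, adjusted p = 1 by edgeR). Differences of mean log2 CPM were also taken, with a prior count of 2, which shrinks differences at low counts. For Pcdhb21 this difference was -1.05 within libraries numbered 1 to 6 and -0.39 within those numbered 7 to 11.

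Next came Pcdhb12, one of the highest beta genes, with 2.06, 2.66, 2.16 and 2.23 CPM in non-defeated and 2.75, 2.26, 2.94 and 3.65 in resilient mice. The groups overlapped only through resilient library 5. Its log2 fold change was 0.35 (SE 0.18, unadjusted p = 0.0697, adjusted p = 1 by edgeR). The difference of mean log2 CPM was 0.09 in libraries 1 to 6 and 0.58 in libraries 7 to 11. The sample numbers are names from the labels, and whether they mark a batch is not stated.

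In susceptible against non-defeated mice, 0 of 23 members were called by edgeR or by its likelihood ratio test, where all genes gave 0.0141% higher and 0.0235% lower. DESeq2 also called 0, but it gave no adjusted p to Pcdhb2 or Pcdhb13. At an unadjusted p under 0.05 edgeR had 2 members, Pcdhb2 and Pcdhb15, both lower, against 13.3% of all genes in either direction. With DESeq2 there were 0 at that threshold. No member's groups were apart, against 8.62% of all genes. The median log2 fold change over the 23 members was -0.21, with 8 above 0 and 15 below, and 0.01 over all genes.

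Between susceptible and resilient mice, 0 of 23 members were called by edgeR, where all genes gave 1.02% higher and 0.873% lower in susceptible mice. The likelihood ratio test called Pcdhb2 (adjusted p = 0.00979), as did the quasi-likelihood test when 10 counts were required in every library (adjusted p = 0.0330). DESeq2 gave no adjusted p to Pcdhb2, Pcdhb15 or Pcdhb13 and called 0 of the members that had one. At an unadjusted p under 0.05 there were 2 members, against 20.9% of all genes, and the groups were apart for 1, against 15.1%. They were again Pcdhb2 and Pcdhb15, which with Pcdhb13 have the lowest CPM of the beta genes tested.

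Pcdhb2 had 0.437, 0.430, 0.885 and 0.611 CPM in resilient libraries 3, 5, 7 and 8, and 0.165, 0.176 and 0.199 in susceptible libraries 2, 4 and 10. All susceptible libraries lay below all resilient ones. In non-defeated libraries 1, 6, 9 and 11 it had 0.474, 0.195, 0.553 and 0.281, of which library 6 lay within the susceptible range. The susceptible values rest on 12, 13 and 15 counts. The level was 3.26-fold lower than in resilient mice, on the log2 scale -1.71 (SE 0.42, unadjusted p = 0.00111, adjusted p = 0.0532 by edgeR), just short of the threshold. The difference of mean log2 CPM was -1.23 within libraries 1 to 6. Within libraries 7 to 11 it was -1.76, where library 10 is the only susceptible one. Against non-defeated mice edgeR's log2 fold change was -1.05 (SE 0.42, adjusted p = 0.321).

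Pcdhb15 had 0.295, 0.454, 0.679 and 0.787 CPM in the resilient libraries, and 0.0825, 0.0677 and 0.384 in the susceptible ones. The first 2 susceptible libraries, with 6 and 5 counts, lay below every other library, and library 10, with 29 counts, lay among the resilient values. The non-defeated values were 0.418, 0.174, 0.918 and 0.463. Relative to resilient mice the susceptible ones stood at -1.62 on the log2 scale (SE 0.63, adjusted p = 0.164 by edgeR). The difference of mean log2 CPM was -1.97 within libraries 1 to 6. Within libraries 7 to 11, with library 10 the only susceptible one, it was -0.88. Without susceptible library 10 edgeR's log2 fold change was -2.86 with an adjusted p of 0.0355. Sst also differed among the susceptible libraries, with 365 and 398 CPM in libraries 2 and 4 and 149 in library 10. It had 317, 155, 138.5 and 168 CPM in resilient libraries 3, 5, 7 and 8, and 165 to 242 in the non-defeated ones. The part of Sst in the values of Pcdhb15 was not tested. Against non-defeated mice Pcdhb15 stood at -1.45 (SE 0.63, adjusted p = 0.350).

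**Figure D5:**
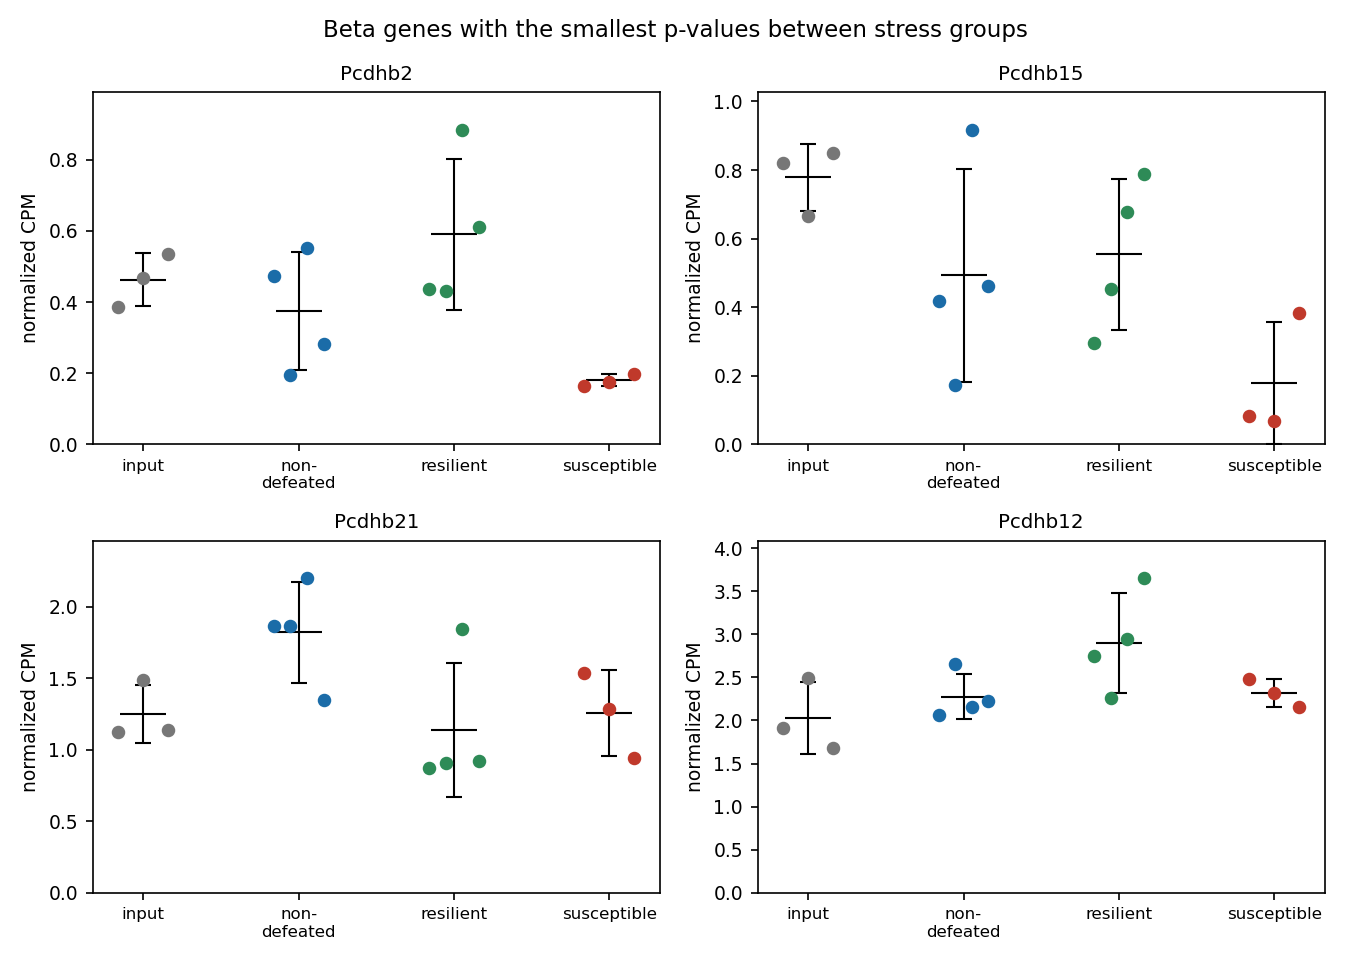
Normalized CPM of Pcdhb2, Pcdhb15, Pcdhb21 and Pcdhb12 in each library by group (points), with the mean and SD (line and bars), on axes that start at 0. The 3 susceptible libraries of Pcdhb2 lie between 0.165 and 0.199 CPM, below the 4 resilient ones at 0.430 to 0.885. None of the 4 genes had an adjusted p under 0.05.

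For the 3 highest beta genes per length no comparison of stress groups had an adjusted p near the threshold. Pcdhb9 had 3.84 CPM in non-defeated, 4.09 in resilient and 3.70 in susceptible mice, and Pcdhb20 had 2.98, 2.54 and 2.46. Their adjusted p-values by edgeR were at least 0.550 in all 3 comparisons. Pcdhb12 had 2.28, 2.90 and 2.32 CPM, and its lowest adjusted p by edgeR was 0.364, between susceptible and resilient mice. Pcdhb7 had 1.98, 2.10 and 2.14 CPM, all 3 below its input level of 3.02. Pcdhb13 had 0.135, 0.0961 and 0.125 CPM, and was called in no comparison, with standard errors of 0.86 to 0.92. Over the 23 members the estimates ran from -0.68 to 0.66 in resilient against non-defeated mice and from -1.71 to 0.64 in susceptible against resilient mice. The summed level of 3 endothelial markers was 2.16 to 4.35 CPM in non-defeated, 3.37 to 14.9 in resilient and 6.61 to 10.6 in susceptible mice. Sst had 190 ± 35.1 CPM in non-defeated, 194.5 ± 82.5 in resilient and 304 ± 135 in susceptible mice (SD), with an unadjusted p of 0.0441 (adjusted p = 0.365 by edgeR) for susceptible against non-defeated and of 0.0534 (adjusted p = 0.246) for susceptible against resilient mice. The part of these markers in the members' values was not tested.

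Genes that act on the choice of protocadherin promoters were mixed. Of 19 such regulators, 4 were called higher and 7 lower in TRAP than in input, against 27.4% and 27.6% of all genes, with a median log2 fold change of -0.16. Smc1a, a core subunit of cohesin, went from 27.4 ± 1.23 CPM in input (SD, n = 3) to 69.9 ± 7.73 in TRAP (SD, n = 4), a log2 fold change of 1.35 with an adjusted p of 8.41e-05 by edgeR, and Lrif1, a partner of SMCHD1, rose by 0.59 on the log2 scale (adjusted p = 0.00135). Dnmt3a, a DNA methyltransferase that sets new methylation, fell by 0.68 (adjusted p = 0.000103) and Mau2, a loader of cohesin, fell by 0.55 (adjusted p = 0.000255).

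Ctcf had 47.5 ± 0.733 CPM in input and 55.7 ± 6.15 in TRAP of non-defeated mice (log2 fold change 0.23, adjusted p = 0.0723). In resilient and susceptible mice it had 54.0 ± 4.95 and 67.1 ± 6.75, with a log2 fold change of 0.31 between them (unadjusted p = 0.00831, adjusted p = 0.109 by edgeR). Smchd1, a repressor of protocadherin promoters, had 22.9 ± 5.30 CPM in non-defeated, 20.5 ± 5.12 in resilient, 24.8 ± 9.83 in susceptible mice and 17.4 ± 0.808 in input, and was called in no comparison. Between stress groups edgeR called 0 of the 19, with 1, 5 and 7 at an unadjusted p under 0.05 in resilient against non-defeated, susceptible against non-defeated and susceptible against resilient mice, where all genes gave 4.38%, 13.3% and 20.9%.

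Genes of proteins that bind the cytoplasmic tails or cleave them mostly had less RNA in TRAP. Of 15, 12 were called lower and 1 higher in TRAP than in input, against 27.6% and 27.4% of all genes, with a median log2 fold change of -1.03. Axin1, a scaffold of Wnt signaling, had 23.6 ± 1.48 CPM in TRAP and 48.2 ± 1.74 in input (adjusted p = 1.62e-07 by edgeR), and Abi2, a subunit of the WAVE complex that drives actin branching, had 120.0 ± 13.9 and 304.6 ± 34.0. The 1 called higher was Ret, a receptor tyrosine kinase (log2 fold change 1.23, adjusted p = 0.0384). Axin1 was also the only gene of these lists called between stress groups, with 19.5 ± 1.25 CPM in susceptible and 27.8 ± 1.47 in resilient mice (log2 fold change -0.51, adjusted p = 0.0227 by edgeR), where 0.873% of all genes were called lower.

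The non-clustered protocadherins, which are single genes outside the 3 clusters, numbered 12. In TRAP against input 3 were called higher and 3 lower, shares close to the 27.4% and 27.6% of all genes. Pcdh7 had 19.0 ± 0.460 CPM in input and 32.2 ± 3.61 in TRAP, a log2 fold change of 0.76 with an adjusted p of 0.000129 by edgeR, and Pcdh18 rose by 0.78 on the log2 scale (adjusted p = 0.00408). Pcdh20 had 18.8 ± 3.35 and 75.8 ± 6.48 CPM (log2 fold change -2.01, adjusted p = 1.63e-06), and Pcdh8 fell by 0.63 (adjusted p = 0.0167). Between stress groups edgeR called 0 of the 12, with 0, 0 and 2 at an unadjusted p under 0.05 in the same 3 comparisons, against 4.38%, 13.3% and 20.9% of all genes.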

How the data were processed

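RNA of 14 libraries was analysed. The labels assign 4 to non-defeated, 4 to resilient and 3 to susceptible mice and 3 to input. Per the study's methods, full-length cDNA from 1 ng of RNA was read as single reads of 150 bases, fastp trimmed them and STAR placed them on mm10. The submitters' processing notes name STAR 2.5.3a and HTSeq, whereas the paper gives a later version of STAR. The authors deposited raw counts per gene, not normalized. No annotation release is given in the sources used here. Of 39017 rows, 96.4% were named from vM21, and rows without a name took 0.824% of all counts.

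Counts were fitted in R 4.3.3 with edgeR 4.0.16 (filterByExpr, TMM, glmQLFit and glmQLFTest, 2-sided), with group as the only term. Totals were between 64110214 and 94726962, and the 18 replicate pairs differed by 13.9 to 126 chi-square per degree of freedom, more than counting error. Simulated data with 200 of 21298 genes changed 2-fold were tested, and 52.5% were recovered for TRAP versus input and 63.5% for susceptible versus resilient mice. Of the calls, 7.08% and 2.31% were false. The changed genes were drawn from all genes tested, whose median biological coefficient of variation was 17.7%, against 33.5% for the beta genes. Recovery among the beta genes was not measured.

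The members and the gene lists were chosen with earlier results of these data known. Named were the C-type member, the 3 highest and the lowest beta gene per length, the called members, the 2 members of smallest p in a comparison with no call, Ctcf, Smchd1, Pvalb and up to 2 called genes per list and direction. The plan had assumed a row for every alpha and gamma gene, which the table did not hold. It had also set the length as bases under no other vM21 gene. Bases under no other row were used instead, chosen after seeing the files, since reads over a gene that is not a row stay in the count. Alternatives were the likelihood ratio test, DESeq2 1.42.0, RLE factors, other filters, fewer libraries, a sample number covariate, a GC offset (98% of genes with a value) and leaving out each library.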

Additional observations from a re-analysis of the deposited data

Results flagged for a closer look

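Within groups of 4 libraries, 50 sets of values (the 23 members tested, the beta sum and the alpha to gamma ratio in non-defeated and in resilient mice) were searched for a library far from the other 3 by Dixon's test, which chance alone meets in about 1 of 20 sets. It was met by 2. The alpha row (Pcdha11) had 91.4 CPM in non-defeated library 1, where the other 3 had at least 112. Without this library, the log2 fold change of TRAP over input was 0.94 instead of 0.87. Pcdhb21 had 1.84 CPM in resilient library 7, where the next had 0.923. Without it, the log2 fold change in resilient against non-defeated mice was -1.01 instead of -0.68, with an adjusted p of 0.9995 by edgeR.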

How the results depend on the processing

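No paired analysis was possible because no sample number of the labels occurs in more than one group. Between susceptible and resilient mice the count of called members was 0, and 1 (Pcdhb2) with the likelihood ratio test (adjusted p = 0.00979) and when 10 counts were required in every library (adjusted p = 0.0330); DESeq2 gave it no adjusted p. Leaving out each library gave between 0 and 1, the 1 being Pcdhb15 without susceptible library 10. The adjusted p of Pcdhb2 was between 0.00979 and 0.145 over the 8 alternatives that gave one and between 0.0573 and 0.183 over 7 left-out libraries. For TRAP against input, the count of 3 was between 2 and 4 over 7 alternatives and between 2 and 3 with a library left out. The alpha and gamma rows kept their direction and call in all 14 of these. In the other comparisons the count was 0 throughout. Scaled by total counts, input against TRAP of non-defeated mice had 65.0 against 104.5 CPM for the alpha row, 208 against 112 for the gamma row and 35.5 against 31.05 for the beta sum, whose groups then no longer overlapped (35.1 to 36.1 and 27.7 to 34.0). Pcdhb12 had 2.06 CPM per kilobase, and the first place, with the planned length, bases free of any other vM21 gene; the length used in its stead was chosen after seeing the data. Among the 10 named members' estimates, 36 of 620 alternative values changed sign with neither value called, and 8 crossed the threshold. Counts were low for some beta genes (1 for Pcdhb13 in 2 libraries), and its standard error of 0.89 goes with a biological variation of 76.1%, above the trend of 56.3% for its abundance.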

Other observations

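Apart from the study's groups, the values of Pcdhb13 and Pcdhb17 split by the number in the sample name, a pattern noticed in the data. In the 6 TRAP libraries numbered 1 to 6, Pcdhb13 had 0.0108 to 0.0962 CPM, and in the 5 numbered 7 to 11 it had 0.0970 to 0.277. The values next to the split rest on 7 counts in susceptible library 2 and 8 in resilient library 7, a gap within counting error. Pcdhb17 had 1.60 to 3.10 and 3.16 to 3.61 CPM. Such a complete split was seen for 2 of the 23 members (8.7%) and for 2.99% of all genes tested. The labels do not say what the numbers stand for, and no test was made.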
